A study of Mus musculus with 2 samples.

Results

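A set of 10 genes in the feedback loop around the kinase ERK was read in uterine stromal cells with and without the transcription factor Hand2. They were the Sprouty genes Spry1, Spry2 and Spry4, the Spred genes Spred1 and Spred2, the phosphatase genes Dusp4, Dusp5 and Dusp6, and the genes Etv4 and Etv5 of the PEA3 group of Ets transcription factors. They were chosen by name, as every probe set that the platform annotation assigns to exactly 1 of these genes. This gave 28 of 34945 probe sets with 1 gene, for 10 of 18193 named genes. Both groups were cells from mice on day 4 of pregnancy with a mixed C57BL/6 and SV129 background. The control mice carried floxed Hand2. In the Hand2-null mice the floxed gene was ablated with PRcre, a line in which the progesterone receptor locus drives Cre recombinase, and the labels list Prcre in the background of both groups. The isolates were made by removing epithelial clumps, digesting the rest with collagenase and letting the cells attach to plates. RNA was pooled by genotype and put on 1 array each, so differences are described by size alone, without replicates or p-values. The series design gives 5 mice per genotype and the extraction protocol 4.

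Fibroblast growth factors and other ligands of receptor tyrosine kinases switch on Ras, Raf, MEK and ERK in turn. Active ERK then induces its own brakes. Sprouty and Spred proteins act upstream of or at the level of Ras and Raf, while the Dusp phosphatases remove the activating phosphates from ERK itself. Etv4 and Etv5 are transcription factors induced by the same signal, and transcripts of all these families are used as readouts of ERK activity. In the mouse uterus, growth factors made by the stroma signal to the overlying epithelium, and the labels name FGFs as a subject of the study.

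The 250 bases before the start of transcription are shown for the 3 genes with the largest differences, Dusp5, Spry2 and Spry1, and for Etv5, the measured gene that was lower. They are RefSeq sequences of build GRCm38.p6, printed 5′ to 3′ on the strand of the gene. Capitals mark E-boxes (CANNTG), the site of basic helix-loop-helix factors such as Hand2, and CArG boxes, the site of serum response factor. The Spry1 window lies at chr3:37639697-37639946 on the plus strand, the Spry2 window at chr14:105896820-105897069 on the minus strand, the Dusp5 window at chr19:53528895-53529144 on the plus strand and the first of the 2 Etv5 windows at chr16:22439571-22439820 on the minus strand.
Dusp5: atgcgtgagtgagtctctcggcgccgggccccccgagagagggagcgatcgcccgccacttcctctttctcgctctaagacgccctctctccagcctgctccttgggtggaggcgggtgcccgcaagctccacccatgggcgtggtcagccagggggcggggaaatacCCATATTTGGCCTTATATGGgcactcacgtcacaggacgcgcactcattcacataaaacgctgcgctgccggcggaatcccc
Spry2: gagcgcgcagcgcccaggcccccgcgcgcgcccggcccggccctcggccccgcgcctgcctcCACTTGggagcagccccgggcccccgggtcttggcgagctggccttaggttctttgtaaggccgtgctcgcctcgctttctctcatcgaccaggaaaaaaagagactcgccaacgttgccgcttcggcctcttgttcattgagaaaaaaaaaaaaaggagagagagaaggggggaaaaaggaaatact
Spry1: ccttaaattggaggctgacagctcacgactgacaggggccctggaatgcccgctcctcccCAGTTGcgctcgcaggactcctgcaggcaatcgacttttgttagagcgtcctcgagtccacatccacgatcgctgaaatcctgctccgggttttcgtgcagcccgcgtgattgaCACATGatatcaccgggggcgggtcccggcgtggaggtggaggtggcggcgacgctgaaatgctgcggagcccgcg
Etv5: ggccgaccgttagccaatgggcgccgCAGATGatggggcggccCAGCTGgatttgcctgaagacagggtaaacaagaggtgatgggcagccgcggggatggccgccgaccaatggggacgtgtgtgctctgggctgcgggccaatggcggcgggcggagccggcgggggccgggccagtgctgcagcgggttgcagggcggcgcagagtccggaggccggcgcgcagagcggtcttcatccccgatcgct

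Windows were held for 7 of the 10 genes, Spry1, Spry2, Spred1, Spred2, Dusp5, Dusp6 and Etv5. Of these genes 4 had an E-box, namely Spry1 with 2, Spry2 with 1, Dusp6 with 1 and Etv5 with 2 in its first window. E-boxes were present in 66.2% of all 32841 windows, so they are no mark of these genes. The Dusp5 window held 2 CArG boxes directly next to each other, at 82 and 72 bases before the start. CArG boxes were found in 1.47% of all windows and 2 or more of them in 6 windows, or 0.0183%. This motif was added after the sequences had been read. Also searched on both strands were the Ets site CCGGAA, the AP-1 site TGANTCA, the CRE TGACGTCA and the TATA box TATAAA. None had a match in the 8 windows, against 12.0%, 6.75%, 1.55% and 12.4% of all windows, in that order. The shorter Ets core GGAA was not searched, and the printed Dusp5, Spry2 and Spry1 windows hold it. The member windows were rich in CG pairs, with 12 to 31 each against a median of 6, and 33.5% of all windows held at least 12. A match describes the letters and no binding was measured.

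Signals are MAS5 intensities, which had the same trimmed mean in both arrays. The floor of an array was the 60th percentile of its signals, 64.2 in the control and 67.5 in the Hand2-null array, and a gene was called measured when its brightest probe set was not under the floor in both arrays. The log2 ratio is the Hand2-null signal over the control signal, positive when the Hand2-null array was higher. In place of a replicate error, the standard deviation of log2 ratios between measured probe sets of 1 gene was 0.194 (3665 genes), and the middle 95% of all 10371 measured genes lay between -0.66 and 0.93. Neither measures the variation between mice. Hand2 itself, read first as a check of the labels, read 1545 in control cells and 38.5, under the floor, in Hand2-null cells, at least 22.9-fold lower.

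Of the 10 genes 7 were measured, and each of these reached the floor in both arrays. In Hand2-null cells 6 of the 7 were higher and 1 was lower, and their median log2 ratio was 0.45. The 6 higher genes include Spred1 at only 0.02. Of all measured genes 44.7% were higher and 55.3% lower, around a median of -0.03. At least 2-fold higher was 1 gene, Dusp5, against 1.99% of all measured genes. At least 1.5-fold higher were 3 genes, Dusp5, Spry2 and Spry1, against 6.21% of all measured genes. None of the 7 was at least 1.5-fold lower, against 3.33% of all measured genes, or at least 2-fold lower, against 0.742%. With a pseudo-signal added in place of flooring, 1 gene was at least 1.5-fold higher and 0 genes were at least 2-fold higher. Adding it pulls ratios towards the ratio of the 2 floors, 67.5 over 64.2. The genes Spry4, Dusp4 and Etv4 were under the floor in both arrays by every probe set, so no ratio is given for them. Since whole isolates were measured, more cells of a type and more RNA per cell cannot be told apart.

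**Figure D1:**
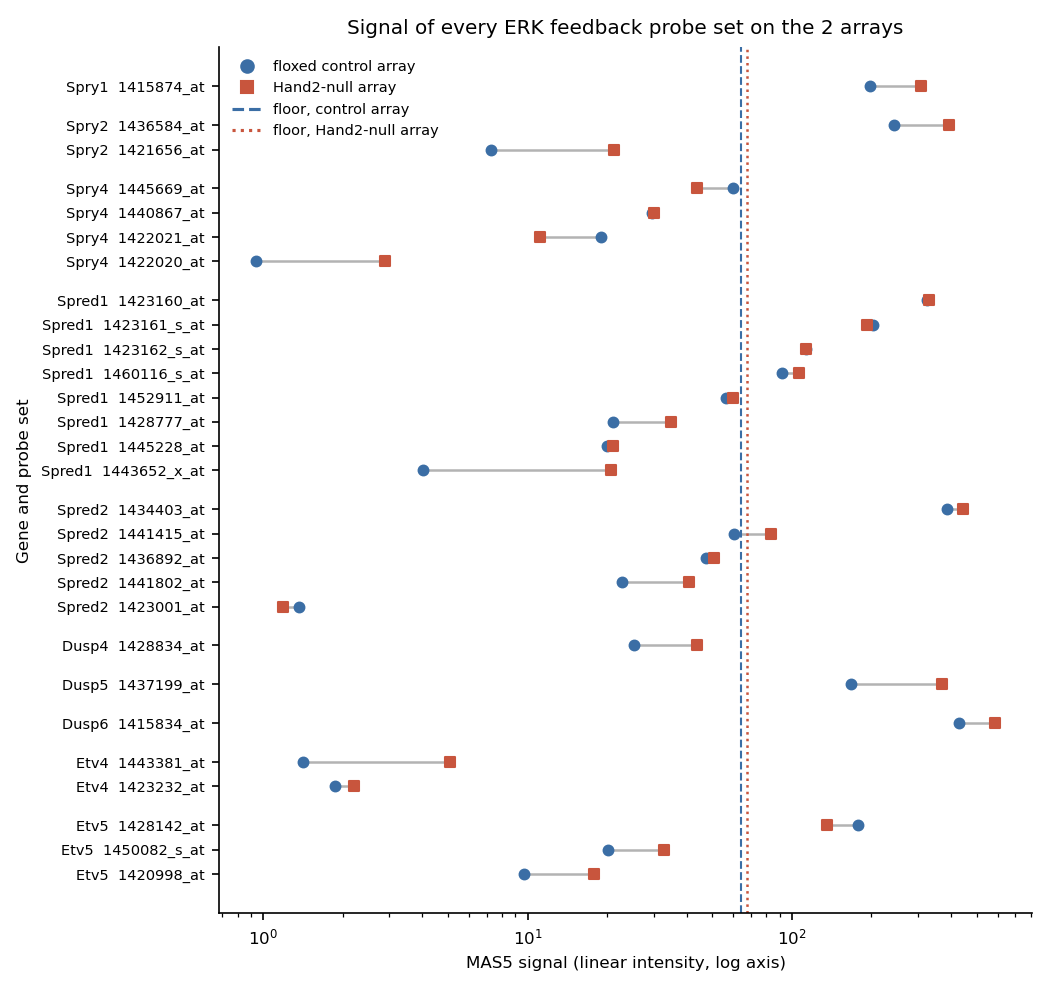
MAS5 signal on a log axis of all 28 probe sets of the 10 genes, with circles for the floxed control array, squares for the Hand2-null array and vertical lines for the floor of each array. To the right of both floors, Dusp5, Spry2, Spry1 and Dusp6 have the square clearly right of the circle, the 4 Spred1 probe sets have both marks close together, and the Etv5 probe set has them in the opposite order.

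The Sprouty genes encode inhibitors that are induced by receptor tyrosine kinases and block the path to Ras and ERK. Spry1 is read by 1 probe set, 1415874_at, with a signal of 197 in the control and 308 in the Hand2-null array. This is 1.56-fold higher, a log2 ratio of 0.64, and 94.6% of measured genes had a lower ratio. Spry2 had signals of 243 and 394 on 1436584_at, 1.62-fold higher or a log2 ratio of 0.69, above 95.2% of measured genes. Both Sprouty ratios thus lay inside the middle 95% of all genes, near its upper end. They were 2.9 and 3.5 times the standard deviation between probe sets for genes of like signal, which is 0.22 for Spry1 and 0.20 for Spry2. The second Spry2 probe set, 1421656_at, had 7.26 and 21.2, both under the floor. With the median over both Spry2 probe sets in place of the brighter one, its log2 ratio was 0.38. There the second probe set was set to the floors, which pulls the value towards the ratio of the floors.

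Spry4, the third Sprouty gene of the set, is read by 4 probe sets, all under the floor. The brightest, 1445669_at, had 59.9 in the control and 43.6 in the Hand2-null array, under the floors of 64.2 and 67.5. The other three had 29.6 and 30.0, 19.0 and 11.1, and 0.939 and 2.88, control first. No probe set of Spry4 thus showed the higher signal at measurable level that Spry1 and Spry2 showed, and at these signals a difference was not detectable.

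The Spred genes encode membrane proteins related to Sprouty that hold Ras and Raf in check, in part through the Ras GTPase activator neurofibromin. Spred1 is the best covered of the 10 genes, with 8 probe sets, 4 of them at or above the floor in both arrays. Its brightest probe set, 1423160_at, had 325 in the control and 330.2 in the Hand2-null array, a log2 ratio of 0.02. The next, 1423161_s_at, had 202 and 192, a ratio of -0.07, 1423162_s_at had 113 and 113, a ratio of 0.00, and 1460116_s_at had 91.5 and 106, a ratio of 0.21. The 4 thus lay on both sides of 0, the farthest being 1.15-fold higher. The other 4 were under the floor, at 4.01 to 56.2 in the control and 20.7 to 59.9 in the Hand2-null array.

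Spred2 had signals of 387 and 443 on 1434403_at, 1.14-fold higher or a log2 ratio of 0.19, with 78.3% of measured genes lower. A second probe set, 1441415_at, had 60.6 in the control, under the floor, and 83.6 in the Hand2-null array, at least 1.30-fold higher. Its remaining probe sets were under the floor at 47.3 and 50.7, 22.7 and 40.7, and 1.36 and 1.19. The Spred2 ratio of 0.19 was about as large as the standard deviation between probe sets of genes with like signal, 0.20. Both Spred genes thus showed smaller ratios, 0.02 and 0.19, than the measured Sprouty genes, 0.64 and 0.69, and that difference was not tested.

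The Dusp genes of this set encode phosphatases that act on ERK, with Dusp5 in the nucleus and Dusp6 in the cytoplasm. Dusp5 had a signal of 167 in the control and 369.5 in the Hand2-null array on its single probe set, 1437199_at. This is 2.21-fold higher, a log2 ratio of 1.14, the largest of the 7 genes and above 98.6% of measured genes. It was 5.1 times the standard deviation between probe sets of genes with like signal and lay outside the middle 95% of all genes. With a pseudo-signal in place of flooring the log2 ratio was 0.92, under 2-fold.

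Dusp6, whose product binds ERK and is widely read as a marker of FGF signalling, had signals of 430.0 and 587 on 1415834_at. It was 1.37-fold higher, a log2 ratio of 0.45, with 90.6% of measured genes lower. The ratio was 2.3 times the standard deviation between probe sets and under both fold thresholds. Dusp4, a nuclear phosphatase of ERK and related kinases, had 25.2 and 43.6 on its single probe set and was under the floor in both arrays. Dusp5, Dusp6, Dusp4 and Spry1 are each read by 1 probe set, so no second probe set checks those values.

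Etv5 is an Ets factor of the PEA3 group that FGF signalling induces in many tissues. It was the measured gene of the set that was lower, with 178 in the control and 136 in the Hand2-null array on 1428142_at, 1.31-fold lower or a log2 ratio of -0.39. Of all measured genes 9.28% had a lower ratio. The size was 1.7 times the standard deviation between probe sets of genes with like signal, 0.22. Its other probe sets were under the floor in both arrays, where values have no order, with 20.1 and 32.8 on 1450082_s_at and 9.67 and 17.8 on 1420998_at. With the floor at the 75th percentile the log2 ratio was -0.11. With the median over all 3 Etv5 probe sets it was 0.07. There the dim probe sets were set to the floors, so 0.07 is the ratio of the floors and does not describe Etv5. The direction of Etv5 thus rests on the brightest probe set, the only one measured. Etv4, its close relative, had 1.41 and 5.08 on 1443381_at and 1.87 and 2.20 on 1423232_at, far under the floor.

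**Figure D2:**
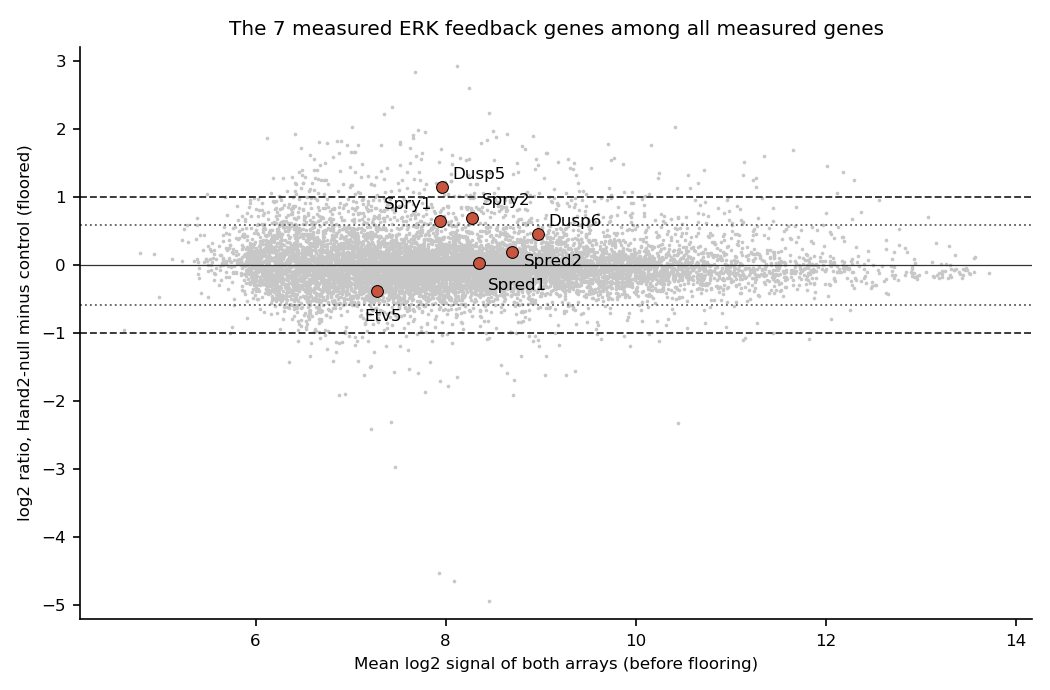
Each grey point is 1 of the 10371 measured genes, with the mean log2 signal of both arrays on the horizontal axis and the floored log2 ratio, Hand2-null minus control, on the vertical axis. Dashed lines mark 2-fold and dotted lines 1.5-fold, and the 7 measured ERK feedback genes are named, with Dusp5 at 1.14 above the upper dashed line and Etv5 at -0.39 below 0.

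Close relatives of the 10 genes were read from a list of 11, of which 10 had a probe set and 7 were measured. In Hand2-null cells 5 were higher and 2 lower, and the median log2 ratio was 0.33. Past 1.5-fold was 1 of them, Dusp10, a phosphatase of the stress kinases p38 and JNK, with 46.0 in the control, under the floor, and 97.3 in the Hand2-null array, at least 1.51-fold higher. Dusp1, an immediate-early phosphatase of all MAP kinase classes, had 3042 and 4486, a log2 ratio of 0.56. Dusp8, another phosphatase of stress kinases, had 90.1 and 131, a log2 ratio of 0.54. The higher phosphatases thus included ones that prefer other MAP kinases. With the floor at the 75th percentile, 2 of the relatives were higher. Spry3, Spred3 and Dusp9 were under the floor.

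The receptors and the cascade that feed ERK were read next. Of 15 receptor tyrosine kinases 12 were measured, 9 of them higher and 3 lower, and their median log2 ratio was 0.07. Past 1.5-fold were 2 upwards and 1 downwards. The FGF receptor genes Fgfr1, with 131 and 286, and Fgfr2, with 225 and 396, had log2 ratios of 1.13 and 0.81, although a second measured probe set of each showed 0.09 and 0.35. Fgfr3 and Fgfr4 were under the floor. Egfr, the epidermal growth factor receptor, had 800 in the control and 524 in the Hand2-null array, a log2 ratio of -0.61, with its other probe sets at -0.27 and 0.09.

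Among 19 measured genes of adaptors, Ras, Raf, MEK and ERK, out of 20 with a probe set of their own and 26 listed, 12 were higher and 7 lower, and the median log2 ratio was 0.08. The 1 gene past 1.5-fold upwards was Rras, a Ras-related GTPase, with 383 and 831, a log2 ratio of 1.12. The 1 gene past 1.5-fold downwards was Gab1, an adaptor of receptor signalling, with 412 and 262, a ratio of -0.66 and -0.52 by a second probe set. The MEK gene Map2k1 had 368 and 456, a log2 ratio of 0.31. The core cascade therefore lay near the median of all genes, -0.03, apart from these few.

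Other brakes on receptors and Ras had 9 higher and 4 lower genes of 13 measured, a median log2 ratio of 0.10 and 0 genes past 1.5-fold in either direction. Il17rd, which encodes the FGF feedback inhibitor Sef and is often found together with Sprouty, had 242 and 235, a log2 ratio of -0.04. Errfi1, an inhibitor of the EGF receptor, had 2540.1 and 3589, a ratio of 0.50 with a second probe set at 0.45, and the ubiquitin ligase gene Cblb had a ratio of 0.35 with its other probe sets at 0.02 and 0.16. Rasal2, a GTPase activator of Ras, had 163 and 109, a ratio of -0.58, with a second probe set at -0.78.

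Kinases that ERK phosphorylates and other Ets factors had 6 higher and 6 lower genes of 12 measured, and their median was 0 to the second decimal. The kinase gene Rps6ka5 was at least 1.5-fold lower, with 205 and 119, a ratio of -0.78, but a second probe set at -0.43 did not reach 1.5-fold. Erf, an Ets repressor that ERK moves out of the nucleus, was at -0.34 and Ets1 at -0.27, with a second Ets1 probe set at 0.19. Of 9 measured genes among other transcripts that respond to ERK, 7 were higher and 2 lower, and the median was 0.23. Maff, a small Maf factor, had 98.9 and 257, a log2 ratio of 1.38, and Hbegf, a ligand of the EGF receptor, had 220 and 327, a ratio of 0.57 with a second probe set at 0.26. Myc had 776 and 475, a ratio of -0.71. The transcripts of this list past 1.5-fold were thus Maff upwards and Myc downwards.

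**Figure D3:**
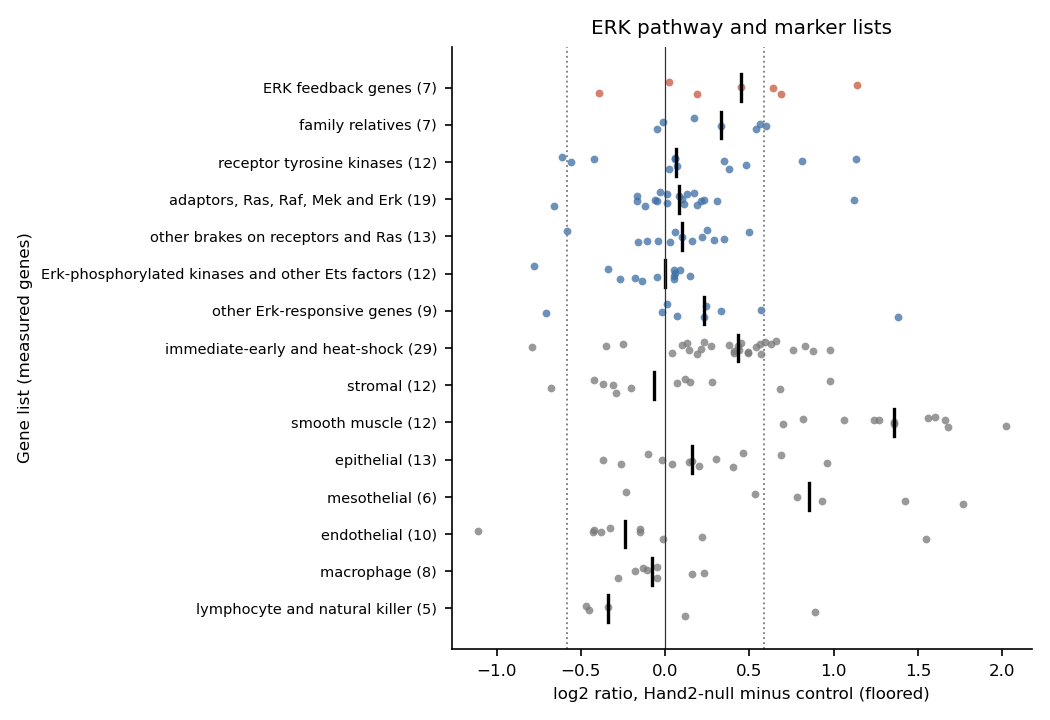
Floored log2 ratios, Hand2-null minus control, of the measured genes of each list, with 1 point for each gene, a black bar at the median, the number of measured genes in parentheses and dotted lines at 1.5-fold. Genes under the floor in 1 array are drawn at their bound. The ERK feedback genes have a median of 0.45, the immediate-early and heat-shock genes 0.43 and the smooth muscle markers 1.36, while the receptors, the cascade and the other brakes lie at 0.07 to 0.10.

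Transcripts of other cell types and of the handling response also differed between the isolates. Smooth muscle markers were higher for all 12 genes by the brightest probe set, and their median log2 ratio was 1.36. Their summed signal was 23009.8 in control and 52379 in Hand2-null cells. Cnn1 and Myh11 led them at 2.02 and 1.68, and all but Myocd reached the floor in control cells. The 2 other measured probe sets of Synpo2 were at -0.47 and -0.25. With the median over all probe sets 11 of the smooth muscle genes were higher. Of 7 mesothelial markers 3 reached the floor in both arrays, namely Gpm6a at 1.77, with a second probe set at 0.56, Upk3b at 1.42, with a second at 0.94, and Wt1 at -0.23. Upk1b, Msln and Lrrn4 were under the floor in control cells and counted as measured only through the Hand2-null array, so their ratios are bounds, and Calb2 was under the floor in both. The summed mesothelial signal over all 7 was 955 in control and 1443 in Hand2-null cells. Wt1, the measured marker that was lower, made up 633 and 541 of these sums. Among 29 genes of the immediate-early and heat-shock classes, induced by tissue dissociation as well as by ERK, 26 were higher, with a median of 0.43 and a summed signal of 52787 and 66977, and Fosb and Atf3 led them at 0.98 and 0.88. The part of these differences in the values of Dusp5, Spry1, Spry2 and Dusp6 was not tested.

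Markers of the labelled cell type were present, as all 12 stromal markers reached the floor in both arrays. Of these, which include the receptors Pdgfra and Pdgfrb of the list above, 6 were higher and 6 lower. They had a median log2 ratio of -0.06 and a summed signal of 53797 and 58815. Their ratios ran from -0.68 for Hoxa11 to 0.98 for Col1a1, with 2 genes past 1.5-fold upwards and 1 downwards. Epithelial markers were present as well, where 13 of 13 reached the floor in both arrays, 9 of them higher, a median of 0.16 and a summed signal of 8811 and 9258. Endothelial markers had a median of -0.24 with 8 of 10 lower, Cldn5 at 1.55 and Cdh5 at -1.11, macrophage markers -0.08 with 6 of 8 lower, and lymphocyte and natural killer markers -0.34 with 3 of 5 lower. The cells that carried each feedback transcript are not known from these arrays.

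**Figure D4:**
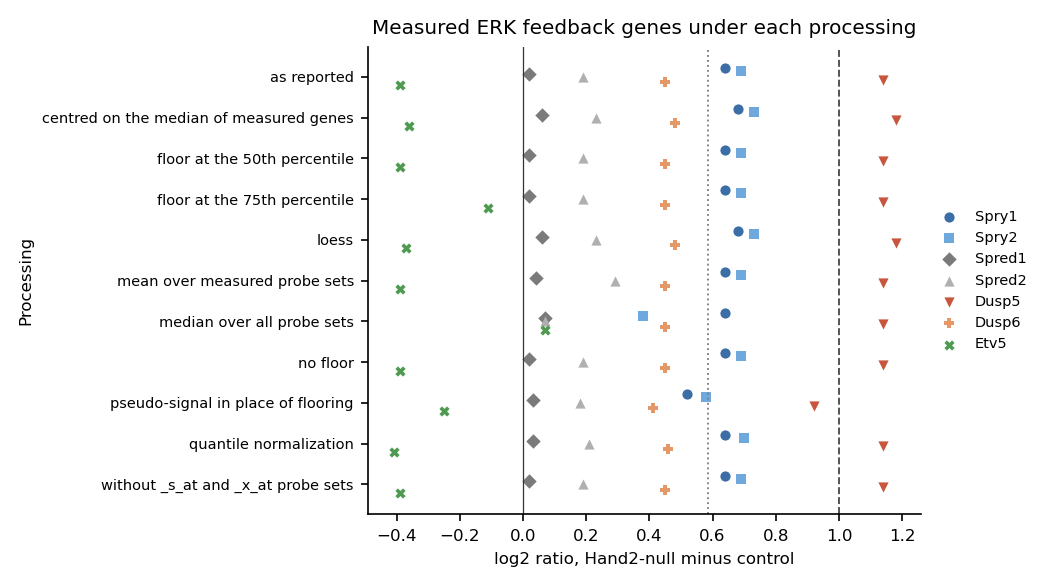
Log2 ratio, Hand2-null minus control, of the 7 measured ERK feedback genes with the processing as reported and under each of 10 alternatives, with a dotted line at 1.5-fold and a dashed line at 2-fold. Dusp5 stays between 0.92 and 1.18, Dusp6 between 0.41 and 0.48 and Spry1 between 0.52 and 0.68. Etv5 is above 0 only with the median over all of its probe sets, where its value is the ratio of the floors.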

How the data were processed

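The series matrix gives 1 linear intensity per probe set and array, deposited by the authors and made with MAS5 (Expression Console, version 1; submitters' processing notes). Each array had a trimmed mean of 150.001, leaving out 2% of signals at either end. Other normalization and a genome build are not given in the sources used here. MAS5 subtracts mismatch probes, so ratios of dim probe sets are unsteady, and detection calls were not used here.

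From the deposited intensities log2 ratios were computed. Of 45101 probe sets 64 controls were left out, 932 had several genes and 9160 none listed. Signals under the floor were set to it, and each gene was represented by its brightest probe set (mean log2 signal). Names were updated through RefSeq by Entrez ID. No test was made, since there was 1 array per genotype, and the number of arrays limits the precision. The 10 genes, the lists and the thresholds of 2-fold and 1.5-fold were chosen with earlier results of these data known. All probe sets of the 10 genes are given, with up to 3 genes of largest ratio per pathway list and up to 2 per marker list, plus the FGF receptors and Il17rd; other genes of the rule are not reported here. Macrophage and lymphocyte lists are given by counts. Likeness of pattern was not ranked, because 2 arrays give 1 ratio per gene. Promoter windows are the 250 bases before each RefSeq start. The procedure was tested on simulated data. Alternatives were 3 scalings, floors at the 50th and 75th percentile or none, a pseudo-signal, 3 other choices of probe set and a 3-fold threshold. Python 3.11.15, numpy 2.4.6, pandas 2.3.3, statsmodels 0.14.6 and matplotlib 3.10.9 were used.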

Additional observations from a re-analysis of the deposited data

How the results depend on the processing

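Across the 10 alternatives the median log2 ratio of the measured feedback genes lay between 0.32 and 0.55, and 6 to 8 of them were higher. Spry1, Spry2, Spred1, Spred2, Dusp5 and Dusp6 were higher under all 10, and Etv5 was lower under 9. Spred1, however, stayed between 0.02 and 0.07, and its 4 measured probe sets lay on both sides of 0. With the median over all probe sets, Spred1, Spred2 and Etv5 each had 0.07. This is the ratio of the floors, to which their dim probe sets were set. The count of genes at least 1.5-fold higher, 3 as reported, was 5 with no floor, 1 with the pseudo-signal and 2 with the median over all probe sets. In the last setting Spry2 was at 0.38, because its dim probe set was set to the floors. The count at least 2-fold higher, 1 as reported, was 2 with no floor, 0 with the pseudo-signal and 0 at a threshold of 3-fold.

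With no floor 10 genes of the set were measured, and the added values rest on signals under the floor. Over all measured genes, the count at least 2-fold higher, 206 as reported, was 117 with the floor at the 75th percentile, 137 with the median over all probe sets, 1646 with no floor and 117 with the pseudo-signal. The count at least 2-fold lower, 77, was 45, 50, 1626 and 40 under the same settings. The count at least 1.5-fold higher, 644, was 2750 with no floor and 356 at the 75th percentile. The count at least 1.5-fold lower, 345, was 186, 223, 2663 and 173 under the 4 settings named first. Fewer genes reach the 75th percentile, no floor admits dim ones, and a pseudo-signal shrinks large ratios by construction. No paired analysis was possible because each genotype has 1 array. Among the list medians, those of the stromal markers, the ERK-phosphorylated kinases with other Ets factors, and the lymphocyte markers changed sign under some alternatives, reaching 0.01, 0.05 and 0.05. The mesothelial median, 0.86 with 3 of 6 values as bounds, was 1.42 with no floor and 1.39 at the 50th percentile, and 2 mesothelial markers in place of 5 were higher at the 75th. Signals under the floor limit what can be said of Spry4, Dusp4 and Etv4.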
